A study of Mus musculus with 4 samples.

Results

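The genes described here are 34 genes of cholesterol synthesis, sensing, uptake, transport, esterification and efflux, taken by symbol from a table of 55536 genes. All 34 were found, and all 34 passed the filter on low values, which left 12838 genes for testing. The tissue was inguinal white fat of wild-type male mice, of which the stromal vascular fraction was sequenced in bulk, meaning the cells that remain once adipocytes are removed. Pups were 21 days old (P21), and every library pooled 3 of them. The 4 libraries cross parents (LnF1 or ObF1 offspring, in a study on parental obesity) with drink (water or 1,3BD), with 1 library per combination. The labels do not explain 1,3BD further. Both columns whose names give no drink were taken as the water libraries.

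Cells make cholesterol from acetyl-CoA through the mevalonate pathway, which ends in farnesyl diphosphate, and then through squalene and lanosterol. When sterol in the endoplasmic reticulum is low, SCAP carries the transcription factor SREBP-2 (gene Srebf2) to the Golgi for activation, and the synthesis genes rise together, while INSIG proteins hold SCAP back when sterol is plentiful. When oxysterols accumulate, liver X receptors raise efflux genes such as Abca1. Fat tissue is a large store of unesterified cholesterol.

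Promoter stretches are shown for 4 members whose values follow. They are Hmgcs1, Mvk, Hsd17b7 and Abca1. Hmgcs1 had the only match to the sterol regulatory element core among the 27 members with a promoter window. Mvk and Hsd17b7 are synthesis genes that moved in opposite directions with 1,3BD, and Abca1 rose most. Sequences are from RefSeq, build GRCm38.p6, read 5′ to 3′ along the gene's strand up to the outermost annotated start, and capitals mark motif matches. The stretches are chr13:119690101-119690350 (plus strand) for Hmgcs1, chr5:114444019-114444268 (plus) for Mvk, chr1:169969242-169969455 (minus) for Hsd17b7 and chr4:53159896-53160145 (minus) for Abca1.
Hmgcs1: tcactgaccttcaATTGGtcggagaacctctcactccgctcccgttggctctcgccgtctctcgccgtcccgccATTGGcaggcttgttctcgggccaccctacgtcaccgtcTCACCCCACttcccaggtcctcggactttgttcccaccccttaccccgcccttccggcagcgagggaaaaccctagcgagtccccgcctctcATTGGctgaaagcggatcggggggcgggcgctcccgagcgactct
Mvk: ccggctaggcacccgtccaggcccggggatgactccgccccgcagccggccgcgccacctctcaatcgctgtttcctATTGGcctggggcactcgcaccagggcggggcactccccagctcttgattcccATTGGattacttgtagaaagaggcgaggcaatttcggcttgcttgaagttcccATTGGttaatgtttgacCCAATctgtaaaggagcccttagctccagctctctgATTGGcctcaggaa
Hsd17b7: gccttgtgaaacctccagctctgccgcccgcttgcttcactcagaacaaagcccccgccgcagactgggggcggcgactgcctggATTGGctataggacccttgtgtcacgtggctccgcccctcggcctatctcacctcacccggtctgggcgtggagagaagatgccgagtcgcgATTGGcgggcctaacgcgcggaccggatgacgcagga
Abca1: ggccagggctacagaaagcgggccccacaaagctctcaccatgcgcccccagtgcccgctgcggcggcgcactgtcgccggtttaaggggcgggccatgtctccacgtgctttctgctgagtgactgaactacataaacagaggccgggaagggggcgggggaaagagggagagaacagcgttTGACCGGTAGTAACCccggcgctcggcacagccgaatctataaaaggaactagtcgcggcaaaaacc

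Motifs were searched on both strands in windows of 250 bases before and 50 after each start, and 27 of the 34 members had a window. CCAAT, the box bound by NF-Y, which cooperates with SREBP, was present in 14 of 15 synthesis genes with a window (93.3%) and in 6 of 12 other members (50.0%), against 41.1% of 27025 genes with a window and 43.4% of the 9587 tested genes with one. Mvk, Hsd17b7 and Hmgcs1 all carry it. The sterol regulatory element core TCACNCCAC was found in 1 of 27 members and in 1.44% of all genes, and in Hmgcs1 it begins 137 bases before the start. The liver X receptor DR4 element, a direct repeat of AGGTCA with a spacer of 4 bases, was in 0 of 27 members and in 0.0148% of all genes. A looser form that also takes in every exact match, with any base allowed at the first position of both repeats and at the C of the first, was chosen after the values were seen. It was in 0.226% of all genes and in 1 of 27 members, Abca1, where its match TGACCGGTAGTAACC on the other strand begins 67 bases before the start. A match is a description of the letters and does not show binding.

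Values are CPM, read counts per 1000000 of a library total that had been multiplied by a scaling factor. A series of 4 values follows the order LnF1 on water, LnF1 on 1,3BD, ObF1 on water, ObF1 on 1,3BD. No combination has a replicate. Differences are on the log2 scale from limma with their standard error (SE), in a model that adds the effects of drink and parents, so that the error measures how far a difference varies from one parental group, or one drink, to the other, moderated over genes. It does not measure the spread between animals. The libraries held 24586827 to 26000090 reads, and 1 read was worth 0.0359 to 0.0434 CPM. The share of mitochondrial reads was 1.128% and 1.296% in water and 2.78% and 5.80% in 1,3BD. Of the fibroblast markers, Pdgfra stood at 243, 281, 236 and 412 CPM, while all 9 summed to 26816 and 27512 CPM in water and 12830.3 and 9321 CPM in 1,3BD. Nearly all of that sum was Col1a1 (16522, 4307, 18761 and 3371 CPM) and Col3a1 (9400, 7941, 8263 and 5239 CPM). With 1,3BD, Dcn, Cd34 and Ly6a were lower in LnF1 and higher in ObF1. Summed over 7 mural and myofibroblast markers the level was 8407 and 9014 CPM in water (LnF1, then ObF1) and 195 and 227 CPM in 1,3BD. Most of that sum was Acta2 (7692, 113, 8097 and 165 CPM). Tagln, Myh11, Rgs5, Cspg4 and Cnn1 were also lower in both 1,3BD libraries. Notch3 read 70.3, 61.5, 51.7 and 24.5 CPM and was not called (limma adjusted p = 0.0555). The 9 macrophage markers summed to between 5.45 and 28.9 CPM, with 2 of 9 under 1 CPM in every library. Single macrophage markers did not all follow their sum. Csf1r, Mrc1, Lyz2, C1qa, C1qb and Fcgr1 were lower on 1,3BD in both parental groups. Cd68 was higher in both, at 1.32, 1.47, 0.956 and 2.14 CPM. Cd14 and Adgre1 were lower on 1,3BD in LnF1 and higher in ObF1. Of 5 leukocyte markers, 3 had 0 reads in every library and Ptprc stayed at or below 0.150 CPM. The 4 endothelial markers were low but not absent, summing to 4.67 and 12.9 CPM in water and 0.717 and 2.44 CPM in 1,3BD, with Cldn5 at or below 0.0424 CPM. Cdh5 fell with 1,3BD (limma adjusted p = 0.000712). Pecam1 read 1.36 and 4.04 CPM in water against 0.394 and 0.562 CPM in 1,3BD. It passed the filter on low values only through its water libraries and so had to differ. The 3 Schwann cell markers summed to 2.67 and 15.6 CPM in water and 1.97 and 0.712 CPM in 1,3BD. Among 5 adipocyte markers, Adipoq and Lep had 0 reads, while the sum, nearly all of it Fabp4, was 6.03 and 8.56 CPM in water and 228 and 153 CPM in 1,3BD. The fibroblast, mural, macrophage, endothelial, Schwann cell and adipocyte sums and the mitochondrial share differed by drink without overlap, and their part in any result was not tested. In pooled cells, fewer cells of a type and less RNA per cell cannot be told apart.

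Per kilobase of exon, and averaged over the 4 libraries, levels of the members ran from 0.249 CPM per kilobase for Abcg1 to 106 for Npc2. Npc2 encodes a lysosomal cholesterol carrier. Next came Abca1 (54.7), then Msmo1 (43.2) and Cyp51 (38.0), both sterol demethylation enzymes. At the low end with Abcg1 were Nr1h3 (0.884), Apoe (0.908), Ch25h (1.999) and Fdps (2.34). Apoe, the gene of apolipoprotein E, had only 33 to 51 reads per library.

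**Figure D1:**
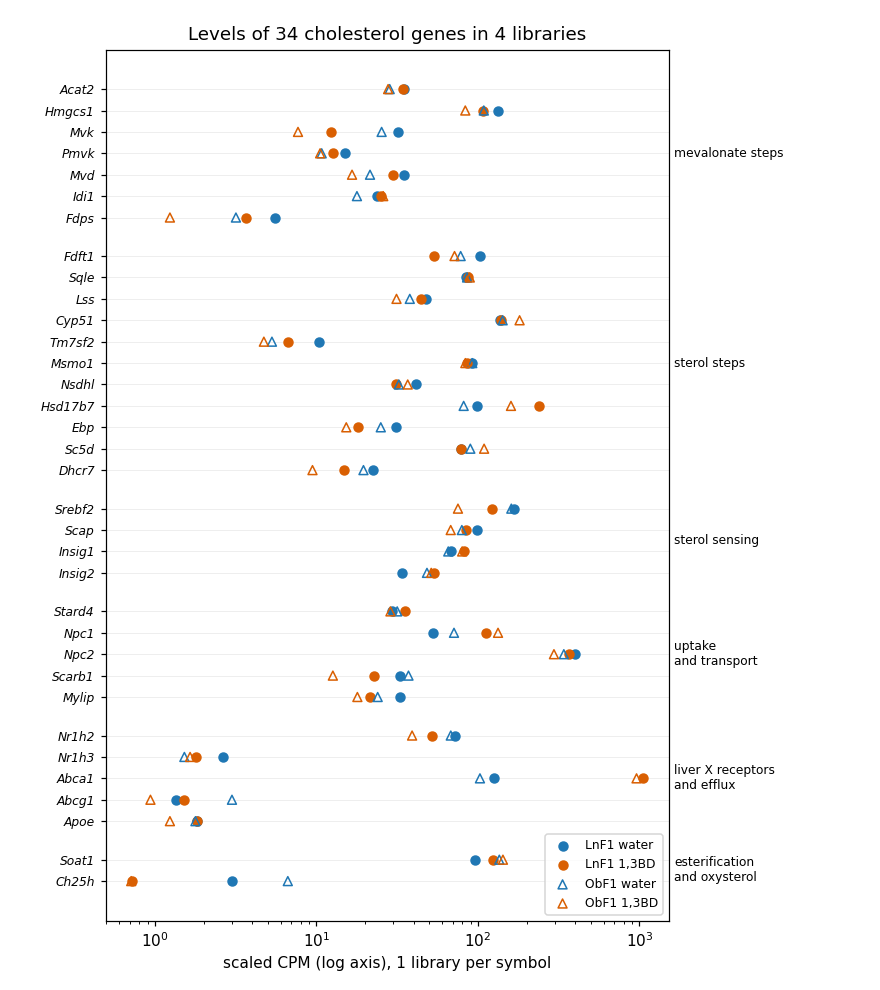
Scaled CPM (log axis) of each of the 34 genes in each library, grouped by role, with circles for LnF1, triangles for ObF1, blue for water and orange for 1,3BD. Abca1 lies at 125 and 103 CPM in water and at 1056 and 959.9 CPM in 1,3BD, while most synthesis genes keep their symbols close together.

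The first comparison asked how 1,3BD differed from water. The cholesterol exporter Abca1, the lysosomal cholesterol exporter Npc1 and the sterol enzyme gene Hsd17b7 rose, while Mvk, Ebp, Dhcr7, Srebf2, Scarb1, Nr1h2 and Ch25h fell. Of the 34 members, 3 were thus higher and 7 lower with 1,3BD at a limma adjusted p under 0.05, or 29.4%, where 44% of all tested genes were called (19.2% higher, 24.8% lower). The other 24 did not pass. Ch25h, counted among the 7, entered the test only through its water libraries. The median difference was -0.20 over the members and -0.06 over all genes. With library totals in place of the deposited scaling, which moves the median of all genes by 0.25, the split was 4 higher and 3 lower (over all genes 3663 and 2283 in place of 2466 and 3189), the members' median became 0.04, and Ebp, Dhcr7, Srebf2 and Nr1h2 no longer passed while Insig2 did. Relative to the median of all genes the members' median was -0.14 with the deposited scaling and -0.15 with totals.

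Abca1 encodes the transporter that loads cholesterol onto apolipoprotein A-I, and lies on chromosome 4 (53030787 to 53159895, minus strand, mm10). It read 125 CPM in LnF1 water and 103 CPM in ObF1 water against 1056 and 959.9 CPM in 1,3BD. Both 1,3BD libraries were far above both water libraries. The rise was 8.85-fold (log2 3.15, SE 0.20, limma adjusted p = 1.15e-06), similar in size in LnF1 (3.07) and ObF1 (3.22), and 50 of the 12838 genes rose more by this estimate. It was called in all 4 fits that left out 1 library. The adipocyte marker Fabp4 was higher in the same libraries, at 223 and 151 CPM on 1,3BD against 5.94 and 8.47 CPM on water, and its part in the result was not tested.

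The other efflux genes did not pass. Abcg1, which exports cholesterol to lipoprotein particles, read 1.36, 1.51, 3.00 and 0.937 CPM (log2 -0.73, SE 0.49, limma adjusted p = 0.253), and its drink groups overlap. Apoe read 1.83, 1.83, 1.78 and 1.24 CPM (log2 -0.25, SE 0.42), also overlapping. Nr1h3, the liver X receptor alpha gene, read 2.63, 1.79, 1.52 and 1.65 CPM and was not called (log2 -0.21, SE 0.41, positive with library totals). Its relative Nr1h2, liver X receptor beta, was far more abundant per length (28.8 against 0.884 CPM per kilobase) and fell in LnF1 libraries from 72.0 to 52.2 CPM and in ObF1 libraries from 67.9 to 39.1 (log2 -0.63, SE 0.21, limma adjusted p = 0.0296). That fall did not pass with DESeq2 (adjusted p = 0.0707), nor with library totals as given above, and a processed pseudogene of Nr1h2 is annotated, so reads could be split between them.

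Npc1 moves cholesterol out of the lysosome together with Npc2. It rose in LnF1 libraries from 52.5 to 113 CPM and in ObF1 libraries from 71.1 to 133, a 2.005-fold difference (log2 1.00, SE 0.20, limma adjusted p = 0.00201), with no overlap between the drinks. Npc2 read 401, 365, 340.4 and 296 CPM and was not called (log2 -0.17, SE 0.20, positive with library totals). Rmc1, on the opposite strand, shares 4.5% of the exon bases of Npc1, at 21.1 to 24.7 CPM.

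Scarb1 encodes the receptor SR-BI, which exchanges cholesterol with high-density lipoprotein (chromosome 5, 125277087 to 125341094, minus strand). It read 32.9 CPM (LnF1) and 37.1 CPM (ObF1) on water, against 22.7 and 12.6 CPM on 1,3BD, so the ObF1 1,3BD library was the lowest. The fall was 2.06-fold (log2 -1.04, SE 0.27, limma adjusted p = 0.0102), -0.54 in LnF1 and -1.55 in ObF1, a gap that could not be tested with 1 library each. Mylip, a ubiquitin ligase gene raised by liver X receptors that marks lipoprotein receptors for breakdown, read 32.7, 21.6, 23.9 and 17.9 CPM, lower on 1,3BD in each parental group, and missed the threshold (limma adjusted p = 0.0898). Stard4, a cytosolic sterol carrier, stayed between 28.7 and 35.4 CPM and was not called.

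**Figure D2:**
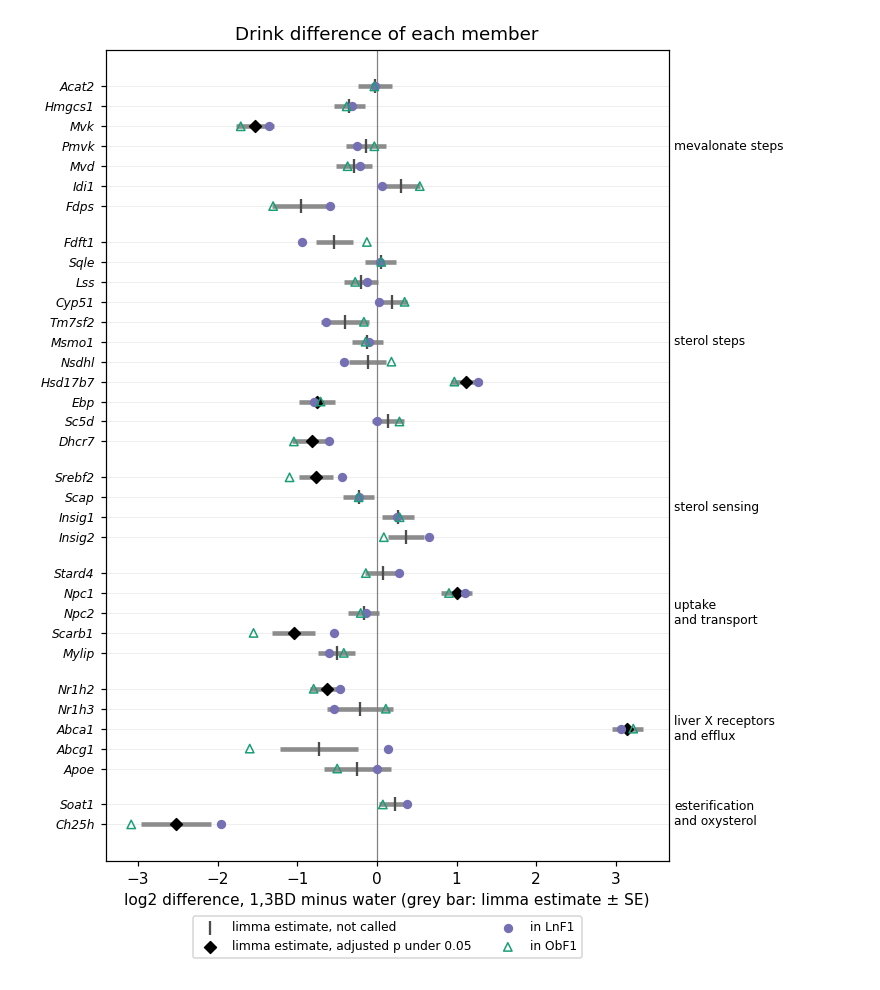
Log2 difference of each member, 1,3BD minus water, in LnF1 (circles) and ObF1 (triangles), with the limma estimate and its SE as a grey bar and a black diamond where the adjusted p is under 0.05. Abca1 stands apart at 3.15, Hsd17b7 and Npc1 lie near 1, and the other 7 diamonds are below 0.

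Among the 7 mevalonate genes, Mvk alone was called. Mvk encodes mevalonate kinase (chromosome 5, 114444269 to 114460591, plus strand) and fell in LnF1 libraries from 31.8 to 12.4 CPM and in ObF1 libraries from 25.3 to 7.69. This 2.89-fold fall (log2 -1.53, SE 0.24, limma adjusted p = 0.000563) left both 1,3BD libraries below both water libraries. Hmgcs1, which makes HMG-CoA, read 133, 107, 109 and 83.5 CPM (log2 -0.35, SE 0.19, limma adjusted p = 0.163), and its groups barely separate. Fdps, farnesyl diphosphate synthase, read 5.56, 3.66, 3.17 and 1.24 CPM on 33 to 131 reads (log2 -0.95, SE 0.37, limma adjusted p = 0.0582). A second annotated gene shares 26.7% of the exon bases of Fdps on the same strand, so its counts are uncertain. How strand was used in counting is not given, and exons of Hmgcs1 (12.1%), Scap (13.2%) and Idi1 (9.2%) also overlap other annotated genes. Idi1, the isomerase that starts isoprenoid assembly, read 23.8, 24.99, 17.8 and 25.9 CPM, and its difference (0.30, SE 0.24) came mainly from ObF1 (0.54, against 0.07 in LnF1). Acat2, which makes acetoacetyl-CoA, ranged from 27.8 to 34.8 CPM and Pmvk, the next kinase after Mvk, from 10.5 to 15.03 CPM. Acat2, Pmvk and Mvd had drink differences of -0.03, -0.14 and -0.29, and those of Acat2 and Pmvk turned positive with library totals.

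Of the 11 genes from squalene to cholesterol, 1 rose and 2 fell. Hsd17b7, a keto-reductase of sterol demethylation (chromosome 1, 169949535 to 169969241, minus strand), rose in LnF1 libraries from 99.2 to 239 CPM and in ObF1 libraries from 81.6 to 160.2 (2.17-fold, log2 1.12, SE 0.20, limma adjusted p = 0.00102). Ebp, the sterol isomerase, fell from 31.3 to 18.04 CPM (LnF1) and from 25.02 to 15.3 CPM (ObF1) (log2 -0.75, SE 0.23, limma adjusted p = 0.0204). Dhcr7, which reduces the last double bond on the way to cholesterol, fell from 22.5 to 14.9 CPM (LnF1) and from 19.6 to 9.45 CPM (ObF1) (log2 -0.82, SE 0.25, limma adjusted p = 0.0200). The groups did not overlap for any of these.

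The remaining 8 sterol genes were not called. Sqle, squalene epoxidase and a control point of the pathway, read 84.0, 86.2, 85.7 and 89.1 CPM, the narrowest range among them (log2 0.05, SE 0.19). Msmo1 read 92.0, 85.7, 92.2 and 83.6 CPM, and Cyp51 136, 138, 142 and 181 CPM. Fdft1, squalene synthase, read 102, 53.1, 78.2 and 71.6 CPM, so its drink difference was -0.94 in LnF1 and -0.13 in ObF1, but 18.3% of its exon bases are shared with Ctsb on the opposite strand (483 to 597 CPM). Nsdhl, a sterol dehydrogenase gene, read 41.4, 31.1, 32.4 and 36.7 CPM, lower on 1,3BD in LnF1 (-0.41) and higher in ObF1 (0.18). Lss, Tm7sf2, Nsdhl and Sc5d had estimated differences of -0.20, -0.40, -0.11 and 0.14. Tm7sf2 shares 12.1% of its exon bases with Vps51 on the same strand. With library totals, the differences of Lss, Msmo1 and Nsdhl turned positive.

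Summed over the 7 mevalonate genes, transcripts read 279 CPM in LnF1 water, 225 in LnF1 1,3BD, 216 in ObF1 water and 173 in ObF1 1,3BD. The 11 sterol genes summed to 745, 795, 689.7 and 792 CPM in the same order. Without Hsd17b7 the remaining 10 summed to 646, 556, 608 and 632 CPM. With the deposited scaling, the drink difference of the sterol sum was thus positive in both parental groups with Hsd17b7 counted, and negative in LnF1 without it. That negative sign rests on the scaling factors, 0.950 for LnF1 water and 1.134 for LnF1 1,3BD, and turns positive with library totals.

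**Figure D3:**
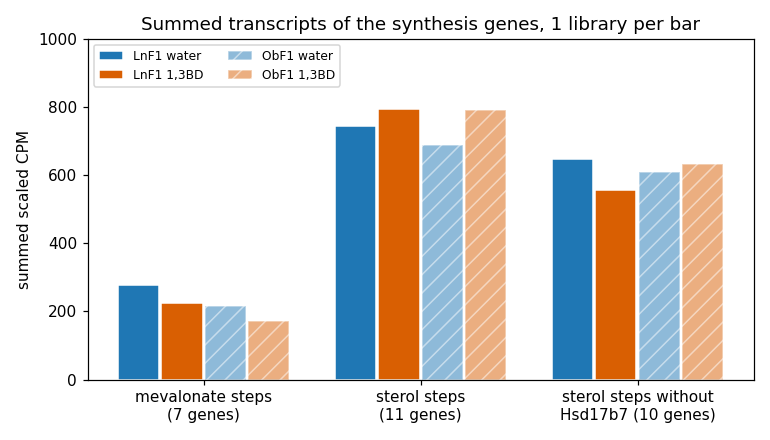
Summed scaled CPM of the mevalonate genes, the sterol genes and the sterol genes without Hsd17b7, 1 bar per library, linear axis from 0. The mevalonate sum is highest in LnF1 water (279 CPM) and lowest in ObF1 1,3BD (173 CPM).

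Of the sterol sensing genes, Srebf2 was called. It read 166 CPM (LnF1) and 161 CPM (ObF1) on water, against 123 and 75.2 CPM on 1,3BD (log2 -0.77, SE 0.21, limma adjusted p = 0.0137), with the ObF1 1,3BD library lowest. Scap read 99.1, 84.6, 79.5 and 67.8 CPM (log2 -0.23, SE 0.19, positive with library totals). Insig1, itself a SREBP target, read 68.6, 81.4, 65.5 and 79.9 CPM, slightly higher in both 1,3BD libraries but not called (log2 0.27, SE 0.20, limma adjusted p = 0.292). Insig2 read 34.04, 53.5, 48.4 and 51.4 CPM (log2 0.37, SE 0.22).

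Ch25h, which makes the oxysterol that restrains SREBP processing and activates liver X receptors, fell most among the members (chromosome 19, 34473778 to 34475164, minus strand). It read 3.01 CPM (71 reads) in LnF1 water and 6.65 CPM (153 reads) in ObF1 water against 0.717 CPM (20 reads) and 0.712 CPM (19 reads) in 1,3BD. The fitted difference was -2.52 (SE 0.44, limma adjusted p = 0.000998), but Ch25h passed the filter only through its water libraries and so had to differ. An antisense gene shares 11.5% of its exon bases, at 0.340 to 1.54 CPM. Summed macrophage markers were also lower, at 28.9 and 16.6 CPM on water (LnF1, then ObF1) and 5.45 and 9.64 CPM on 1,3BD. Not every marker followed the sum, and Cd68 was higher with 1,3BD in both parental groups. The part of these markers in the fall of Ch25h was not tested. Soat1, which esterifies cholesterol for storage, read 95.4, 124, 136 and 143 CPM and was not called (log2 0.22, SE 0.20).

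In single-library differences, which have no test, 3 of 29 members with a mean of at least 5 CPM were at least 2-fold higher on 1,3BD in LnF1 (Hsd17b7, Npc1 and Abca1, against 8.86% of such genes) and 1 at least 2-fold lower (Mvk, against 14.2%). In ObF1 this was 1 higher (Abca1, against 10.7%) and 4 lower (Mvk, Dhcr7, Srebf2 and Scarb1, against 17.4%).

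Part of these calls depended on the parental term and on single libraries, which cannot be fully told apart here because fits without 1 library also lose that term. Without the term and with all 4 libraries, the 3 higher calls stayed and 4 were lower (Mvk, Ebp, Scarb1 and Ch25h). Without 1 library as well, fits called 2 higher and 1 lower without LnF1 water (Hsd17b7, Abca1 and Ch25h), 3 and 8 without LnF1 1,3BD (all 10 plus Fdps), 2 and 1 without ObF1 water (Npc1, Abca1 and Mvk), and 3 and 2 without ObF1 1,3BD (Hsd17b7, Npc1, Abca1, Mvk and Ch25h).

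Other genes of the pathway, from lists chosen like the members with earlier results known, were split between directions, where 19.2% of all tested genes were higher and 24.8% lower. The share called was 31.8% in sterol regulation and uptake, 26.3% in the isoprenoid branch, 46.4% in intracellular transport, 58.8% among liver X receptor and lipoprotein genes and 16.7% among oxysterol and bile acid steps, against 44% of all genes, so these counts are a description of the lists. In sterol regulation and uptake beyond the members, 4 of 22 tested genes were higher with 1,3BD and 3 lower. Vldlr, a lipoprotein receptor gene, rose in LnF1 libraries from 80.7 to 347 CPM and in ObF1 libraries from 134 to 446 (log2 1.92, SE 0.20), and Lrp8, a related receptor gene, rose by 1.47 (SE 0.28). Mbtps2, the protease that releases SREBP, rose by 0.93 (SE 0.21), and Acss2, an acetyl-CoA synthetase gene, by 1.05 (SE 0.25). In the branch to isoprenoids other than sterols, 2 of 19 were higher, Nus1 (1.43), of dolichol synthesis, and Ggps1 (0.78), geranylgeranyl diphosphate synthase, and 3 lower, the prenyl transferase subunits Rabggta (-1.43) and Fntb (-1.23) and Dolpp1 (-0.83), a dolichyl diphosphate phosphatase gene.

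Liver X receptor targets and lipoprotein genes beyond the members had 5 of 17 higher and 5 lower. Scd1, a fatty acid desaturase gene, rose in LnF1 libraries from 162 to 1909 CPM and in ObF1 libraries from 243 to 2369 (log2 3.42, SE 0.21). Lpl, lipoprotein lipase, rose by 2.71 (SE 0.27), Lpcat3, a phospholipid remodelling gene, by 1.14 (SE 0.20), and the corepressor gene Ncor1 by 0.94. The lipocalin gene Apod (-3.71), Pltp, the phospholipid transfer protein (-1.63), Smpdl3a (-1.13) and Abca2 (-0.84) fell. Intracellular sterol transport and ester hydrolysis had 4 of 28 higher and 9 lower. There the oxysterol-binding protein relatives diverged: Osbpl6 (1.90), Osbpl11 (0.99) and Osbpl8 (0.87) rose, while Osbpl5 fell in LnF1 libraries from 118 to 29.1 CPM and in ObF1 libraries from 119 to 23.6 (log2 -2.17, SE 0.21), and Osbpl10 read 2.04 and 1.43 CPM on water against 0.394 and 0.225 CPM on 1,3BD, passing the filter only through its water libraries, so that it had to differ. Lipe, a hormone-sensitive lipase that also cleaves cholesterol esters, rose by 1.02, and Apol6 (-3.36, under 1 CPM in ObF1 1,3BD) and Tspo (-2.43), a mitochondrial outer membrane protein that binds cholesterol, fell. Of the oxysterol and bile acid steps, Cyp7b1, an oxysterol hydroxylase gene, was the only 1 of 6 called (-2.07, SE 0.32). Each gene named from these lists passed limma at an adjusted p of at most 0.0254.

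The second comparison asked how ObF1 differed from LnF1. None of the 34 members passed in limma (0 higher and 0 lower, where 0.296% of all genes passed, 0.195% higher and 0.101% lower), although 4 had an unadjusted p under 0.05, and edgeR and DESeq2 also called 0 (3 and 2 at an unadjusted p under 0.05). The difference was below 0 in both drinks for 20 of 34 members (58.8%), where 28.5% of all genes were, and above 0 in both for 5 (14.7%), where 30.2% were. The median difference was -0.27 over the members and 0.01 over all genes, and -0.26 in water and -0.28 in 1,3BD over the members. Because the members were chosen with earlier results of these libraries known, these counts are a description and not independent evidence of the direction. Library totals move the median of all genes by -0.11 and the members' median to -0.38.

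The mevalonate genes were lower in ObF1 in 6 of 7 cases in both drinks. Mvd, the decarboxylase of this branch, read 34.7 and 29.9 CPM in LnF1 (water, then 1,3BD) and 21.5 and 16.6 CPM in ObF1, with both ObF1 libraries below both LnF1 libraries. Its difference of -0.77 (SE 0.22) had an unadjusted limma p of 0.00549 and an adjusted p of 0.224, the lowest adjusted p among the members. Fdps had -0.79 in water and -1.50 in 1,3BD (limma estimate -1.15, SE 0.37, adjusted p = 0.278). Mvk had -0.33 and -0.68, Hmgcs1 -0.29 and -0.36, Acat2 -0.29 and -0.30, and Pmvk -0.48 and -0.26. Idi1 was the exception, at -0.42 in water and 0.05 in 1,3BD.

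Later steps were mixed. Tm7sf2, a sterol reductase gene, read 10.4 and 6.67 CPM in LnF1 and 5.30 and 4.72 CPM in ObF1 (log2 -0.73, SE 0.30, limma adjusted p = 0.409). Hsd17b7 was lower in ObF1 by -0.28 in water and -0.58 in 1,3BD (limma adjusted p = 0.460), and Lss, lanosterol synthase, by -0.34 and -0.49. Sc5d, a sterol desaturase gene, read 78.1 and 78.2 CPM in LnF1 against 89.7 and 109 CPM in ObF1, and Cyp51 likewise had both ObF1 libraries above both LnF1 libraries. Sqle and Msmo1 had differences of 0.04 and -0.02 (SE 0.19 each), and that of Sqle turned negative with library totals, as did that of Fdft1 (0.02).

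At least 2-fold differences between parents were seen in 0 of 29 members with a mean of at least 5 CPM, in either drink and direction. Of such genes in all, 1.81% were higher and 1.4% lower in ObF1 on water, and 1.89% and 3.02% on 1,3BD.

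The parental groups did not overlap for 13 members (38.2%), where 16.5% of all genes did not. Of these, 10 were lower in ObF1 (Acat2, Pmvk, Mvd, Fdps, Lss, Tm7sf2, Scap, Npc2, Nr1h3 and Apoe) and 3 higher (Cyp51, Sc5d and Soat1), where 8.02% of all genes were apart on the lower side and 8.44% on the higher. For Apoe the gap was 1.83 against 1.78 CPM, on 43 and 51 reads in LnF1 (water, then 1,3BD) and 41 and 33 in ObF1, within counting error. For Pmvk, Fdps, Tm7sf2, Scap, Nr1h3 and Cyp51 the 95% exact Poisson intervals of the nearest libraries overlap as well. For drink the corresponding count was 18 of 34 (52.9%), where 71.9% of all genes were apart.

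Outside the synthesis genes, Npc1 and Soat1 were higher in ObF1 in both drinks, Npc1 by 0.44 in water and 0.24 in 1,3BD and Soat1 by 0.51 and 0.21, and neither was called. Abca1 had -0.29 and -0.14 (limma adjusted p = 0.726). Ch25h had 1.12 in water and -0.01 in 1,3BD, where both libraries held few reads. In the wider lists 1 gene passed for parents, Pltp, at 35.1 and 12.01 CPM in LnF1 and 13.8 and 4.16 CPM in ObF1 (log2 -1.43, SE 0.25, limma adjusted p = 0.0443).

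**Figure D4:**
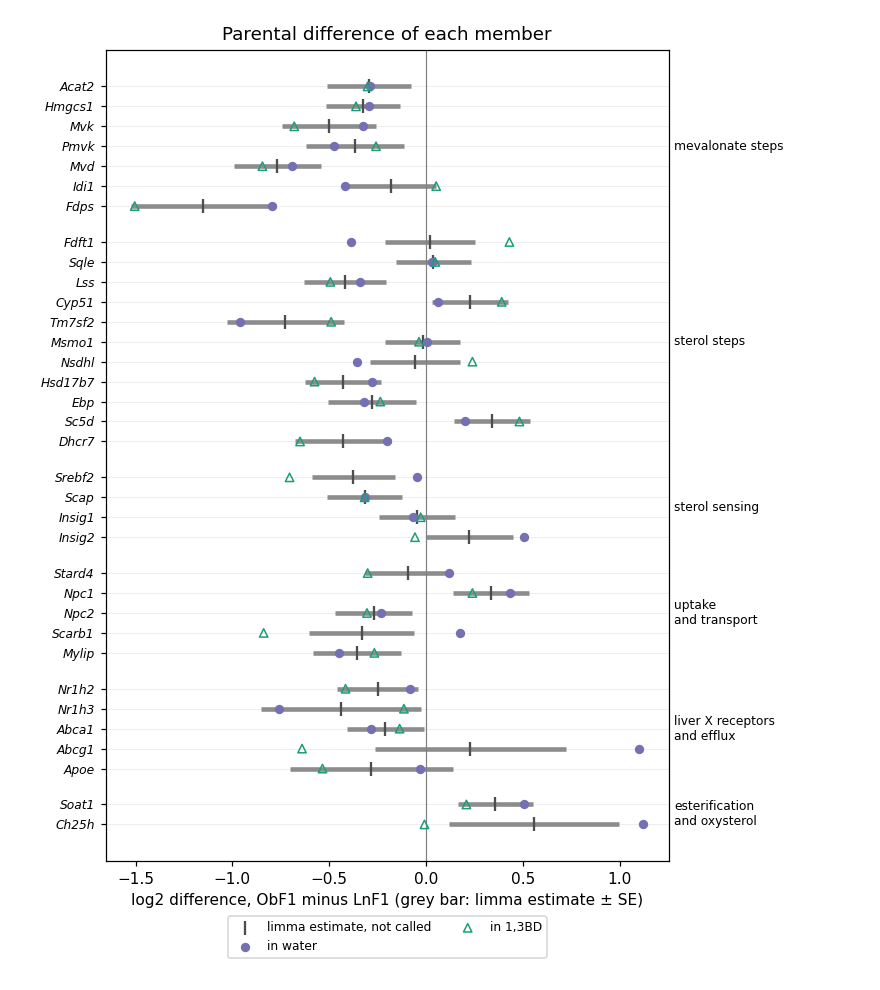
Log2 difference of each member, ObF1 minus LnF1, in water (circles) and in 1,3BD (triangles), with the limma estimate and its SE as a grey bar. No estimate passed the threshold. Left of 0 lie 25 of 34 estimates (73.5%), among them those of all 7 mevalonate genes, against 48.7% of all tested genes. The members were chosen with earlier results of these data known.

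The drink difference in ObF1 minus that in LnF1 has no test here, because the model with an interaction leaves no residual. Its median size was 0.31 over the members and 0.36 over all genes. Among members with a mean of at least 5 CPM it was farthest from 0 for Scarb1 (-1.01), Fdft1 (0.82) and Srebf2 (-0.66).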

How the data were processed

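The authors deposited 1 table with 4 columns, a scaled signal per gene and library rather than raw counts. In each column all values (100%, relative tolerance 1e-06) are whole multiples of 1 read's worth, so whole reads were recovered for alternatives. Each value is CPM on a library total multiplied by a factor (0.885 to 1.134). Per the submitters' processing notes, mm10, edgeR and DESeq2 were used; the sources used here do not name an aligner, counter, strand setting or annotation. A count of 0 allows 3 reads, or 0.108 to 0.130 CPM, for counting error only.

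The main test was limma 3.58.1 on log2(CPM + 0.0796), a pseudocount worth 2 reads, which understates changes of low genes. The filter kept genes that reached 1 CPM in 2 or more libraries, with a trend, robust moderation, 1 residual degree of freedom and Benjamini-Hochberg adjustment over all 12838 genes at 0.05. The design had named this test for CPM. On simulated data with 200 changed genes of 12838 it recovered 52.6% of drink changes of log2 size 1 and 98.1% of size 2, with 14 false calls, and 49.3% and 97.0% for parents, with 7. The simulated share of changed genes was far below the 44% called for drink in the data. The adjustment depends on that share, so the simulated figures need not hold for the drink test. Each simulation changed only the tested factor and gave genes of like level the same spread. The figures for parents need not hold in the data either. Exon lengths, overlaps and coordinates are from GENCODE M21 (GRCm38), promoters from RefSeq. The members and lists were chosen with earlier results of these data known. All members are named. Of each wider list, up to 4 called genes per direction with the largest smaller single-library difference were eligible, and some are not reported here. Alternatives used edgeR 4.0.16 and DESeq2 1.42.0.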

Additional observations from a re-analysis of the deposited data

Results flagged for a closer look

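Abcg1, which exports cholesterol to lipoprotein particles, differed between parental groups in opposite directions in the 2 drinks, by at least 0.5 on the log2 scale in each. ObF1 was higher by 1.10 in water, at 3.00 CPM (69 reads, 95% exact Poisson interval 2.33 to 3.79 CPM) against 1.36 CPM (32 reads, 0.929 to 1.92 CPM). In 1,3BD it was lower, with a difference of -0.64, at 0.937 CPM (25 reads, 0.607 to 1.38 CPM) against 1.51 CPM (42 reads, 1.09 to 2.04 CPM). The intervals cover counting error only. They are apart in water and overlap in 1,3BD, and the reversal was not tested.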

How the results depend on the processing

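No paired analysis was possible because each combination of parents and drink has 1 library. Abca1, Npc1, Hsd17b7, Mvk and Scarb1 passed for drink in all 10 alternatives of test, scaling, pseudocount, filter and moderation. With library totals the members called lower were 3 and the members' median was 0.041, and without the parental term 4 were called lower. Without 1 library, 2 to 3 members were called higher and 1 to 8 lower, the members' median ran from -0.329 to -0.027, and calls over all genes ran from 668 to 1926 higher and from 1232 to 2731 lower. For parents, 0 members passed in any fit. Calls over all genes were 69 higher and 48 lower with DESeq2, 16 higher with library totals, 11 and 5 with a pseudocount of 0.5 CPM, 8 and 5 with 1 CPM, 10 and 5 with a filter on the mean (5 CPM), 196 and 156 with none, and 0 and 0 without the drink term (39 at an unadjusted p under 0.05 in limma). Without 1 library they were 0 higher and 0 to 2 lower, with a members' median from -0.383 to -0.075. The cause of these changes was not tested, except that fits without a term lose a covariate and fits without a library lose both a sample and that covariate. Counts of 19 to 153 reads limit Abcg1, Apoe, Nr1h3, Fdps and Ch25h.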
